A study of Canis lupus familiaris with 12 samples.

Results

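The nuclear-encoded subunits of the mitochondrial respiratory chain and ATP synthase were examined in hippocampal RNA of beagles. Members were the gene models whose symbol begins with NDUFA, NDUFB, NDUFC, NDUFS, NDUFV, UQCR, COX4 to COX8 or ATP5, with SDHA, SDHB, SDHC and SDHD, outside the mitochondrial sequence and with a mean of at least 0.5 RPKM (reads scaled to transcript length and to the assigned reads of the library). By symbol 79 of the 31158 deposited gene models matched, and 77 of them reached that level, which left 45 members for complex I, 4 for complex II, 5 for complex III, 10 for complex IV and 13 for complex V. Of these, 67 encode subunits and 10 are factors taken in by their prefix, namely 8 NDUFAF genes, COX7A2L and ATP5S; NDUFA4 and NDUFA4L2 were counted in complex IV. Both left out were low, COX6A2 at a mean of 0.0631 RPKM and ATP5I at 0.254 RPKM, while the lowest member inside the limit was NDUFA4L2 at 0.712 RPKM. No deposited gene model carried the symbol UQCRC1, UQCRC2, COX6A1, COX6B1 or COX7A2, among others. Values by complex below therefore cover the members found and not whole complexes. Hippocampus came from beagles after rapid atrial pacing for 2 weeks and from beagles after a sham operation, with 3 libraries per arm. Pacing at a high rate drives the atria electrically and serves as a model of atrial fibrillation, and the study asks how this arrhythmia relates to cognitive impairment. Epicardial fat exosome miRNA of the same study was not used here. The labels do not state that each library came from a separate dog, so p-values measure the spread between these libraries.

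The respiratory chain passes electrons from NADH (complex I) and succinate (complex II) through ubiquinone to complex III, by cytochrome c to complex IV and so to oxygen. Complexes I, III and IV pump protons across the inner mitochondrial membrane, and complex V, the ATP synthase, makes ATP from their return. The mitochondrial genome encodes a few core subunits of complexes I, III, IV and V, and the nucleus encodes all others, including the whole of complex II. Neurons draw most of their ATP from this chain, and synaptic transmission is among its largest consumers.

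The pacing libraries held 35003483 to 43425895 assigned reads, and the sham libraries 36573169 to 51789497. Neuronal transcripts were abundant in all 6 libraries, with SNAP25, a protein of synaptic vesicle fusion, at 907, 1136 and 886 RPKM in the pacing libraries, against 940.2, 601 and 786 RPKM in the sham libraries. The pyramidal neuron gene NEUROD6 was present in each library as well, at 225, 345 and 222 RPKM in pacing, against 271, 188 and 227 RPKM in sham. Sham replicate 2 stood apart on the first principal component of all tested genes (45.3% of variance), at 39.6 where the other 5 libraries lay between -13.5 and 8.61. The summed level of 10 neuronal markers was 3070, 3032 and 3110 RPKM in pacing, against 3213, 2067 and 3193 RPKM in sham, lowest in sham replicate 2. The same library had the highest sum of 6 oligodendrocyte markers, with 1480, 1844 and 1668 RPKM in pacing, against 1517, 2705 and 1086 RPKM in sham. The choroid plexus gene TTR varied widely between libraries, at 155, 70.5 and 103 RPKM in pacing, against 2.46, 449 and 42.9 RPKM in sham. Some other lists had a median difference away from zero, with most but not always all of their tested genes on 1 side. Ependymal markers were lower in 5 of 5 (median log2 difference -0.55, sums of 13.2 to 24.6 RPKM in pacing and 16.9 to 36.6 RPKM in sham), and 3 of them had an unadjusted p under 0.05. Immediate early genes were higher in 2 and lower in 7 of 9 (median -0.54), with 3 lower at that p. Their sums were 125, 116 and 136 RPKM in pacing, against 118, 246 and 204 RPKM in sham. Sham replicate 1 thus lay inside the pacing range. Microglial markers were higher in 4 and lower in 2 of 6 (median 0.30), with 2 higher at that p. Markers of pericytes and smooth muscle were higher in 5 of 5 tested (median 0.22), and endothelial markers higher in 3 and lower in 2 of 5 (median 0.17), each with 1 higher at that p. Among all genes, 6.3% were lower and 2.85% higher at that p. No gene of these lists passed, and their part in the values below was not tested. In bulk tissue, fewer cells of a type and less RNA per cell cannot be told apart.

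Respiratory chain transcripts were among the more abundant in hippocampus. The median member stood at 27.5 RPKM, at percentile 85.5 of the 16090 genes tested, whose median was 4.87 RPKM. In all, 33 of the 77 members lay in the top 10% of tested genes and 8 below the median gene. RPKM is scaled to the length of the deposited gene model, so levels of different genes also depend on those models. How far the models shape the ranges below was not tested. Subunits that stand in equal numbers in a finished complex differed widely in RPKM. The 37 complex I subunits ranged from 3.67 RPKM for NDUFA7 to 277 RPKM for NDUFB10, both accessory subunits, a 75.7-fold range with a median of 51.8 RPKM. The median was 23.3 RPKM for 4 complex II subunits, 48.6 RPKM for 5 complex III subunits, 9.7 RPKM for 9 complex IV subunits, and 28.1 RPKM for 12 complex V subunits. Without the tissue isoforms COX4I2, COX7A1, COX7B2 and NDUFA4L2 the complex IV median was 195 RPKM over 5 subunits.

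Among the members found, the order of levels within each complex was led by a few genes. In complex I, NDUFB10 was followed by NDUFA13 at 244 RPKM, NDUFB9 at 238 RPKM, NDUFA8 at 235 RPKM and NDUFA5 at 218 RPKM (means of 6 libraries), all accessory subunits. Among these accessory subunits, NDUFA13, NDUFB9 and NDUFA8 lay closer to each other than their spread over libraries. Complex II was led by SDHA at 85.9 RPKM and complex III by UQCRH, the hinge protein that binds cytochrome c1, at 243 RPKM. Complex IV was led by NDUFA4 at 218 RPKM, COX5B at 195 RPKM and COX4I1 at 195 RPKM, of which COX5B and COX4I1 differed by less than their spread, and complex V by ATP5B, the beta subunit that carries the catalytic sites, at 235 RPKM.

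**Figure D1:**
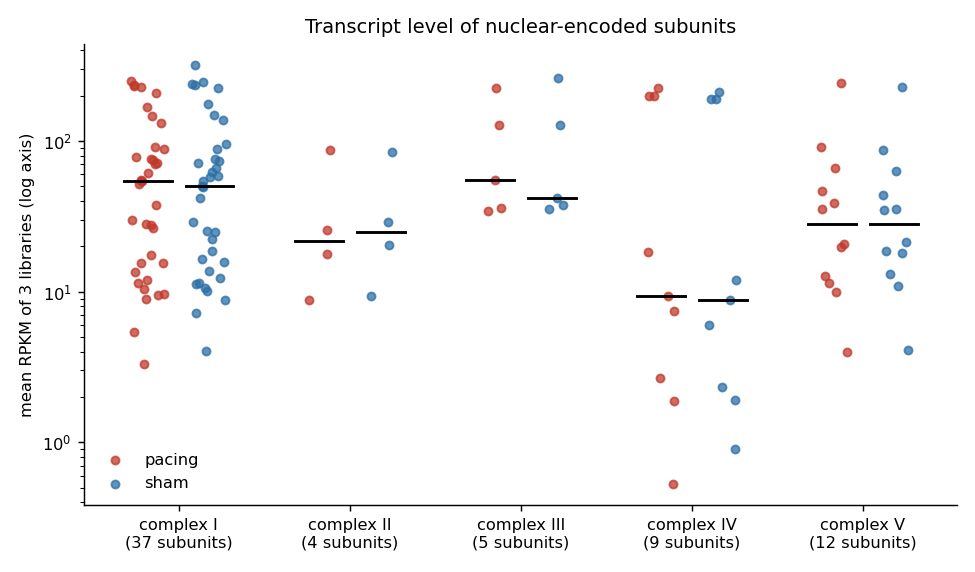
Mean RPKM of each nuclear-encoded subunit over 3 pacing libraries (left, red) and 3 sham libraries (right, blue), on a log axis, by complex; black bars are medians over subunits. Complex I spans 3.67 to 277 RPKM over the mean of all 6 libraries, and both arms cover nearly the same range in every complex.

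No member passed the test between pacing and sham. With limma on log2(RPKM + 1) and Benjamini-Hochberg adjustment over 16090 genes, 0 of 77 members passed an adjusted p of 0.05, where 0.0249% of all tested genes did, and the smallest adjusted p of a member was 0.273 (ATP5J2). At an unadjusted p under 0.05 there were 6 members (NDUFB2, UQCRFS1, NDUFB10, NDUFAF1, UQCRH and ATP5J2), or 7.79% of members beside 9.15% of all genes. The first 2 were higher and the other 4 lower in pacing, where 2.85% and 6.3% of all genes were so. limma-voom on recovered reads also called 0 members. Leaving out sham replicate 2 gave 0 calls with a smallest adjusted p of 0.186, and leaving out sham replicate 1 gave 0 calls with 0.072. By arm means, 37 members were higher and 40 lower, or 48.1% higher beside 41.1% of all genes. Median-of-ratios scaling gave 49 members higher, and scaling to reads outside the mitochondrial sequence gave 45. These scalings also moved the median log2 difference of all genes, to 0.002 and -0.019, so the share of 41.1% does not apply to them. The median log2 difference was -0.01 for members and -0.04 for all genes. Most members lay close to zero, 59 of 77 within a log2 difference of 0.2 (76.6%, against 70.8% of all genes).

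Pacing and sham libraries did not overlap for 7 members, or 9.09% of them, where 16.2% of all genes did so (4.92% higher and 11.3% lower in pacing). All pacing libraries lay below all sham libraries for 5 members, NDUFB10, NDUFAF1, SDHD, UQCRH and ATP5J2, and above them for 2, NDUFB2 and ATP5J. The median member varied less between libraries than the median gene, but members stood at higher levels and the comparison was not matched for level. Their median coefficient of variation was 6.13% in the pacing arm and 10.04% in the sham arm, beside 8.39% in pacing and 17.03% in sham for all genes. The highest library exceeded the lowest by more than 2-fold for 7 members (9.09%), compared with 24.01% of all genes, and by under 1.5-fold for 56 members. The sham arm was the more variable for 52 of 77 members.

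**Figure D2:**
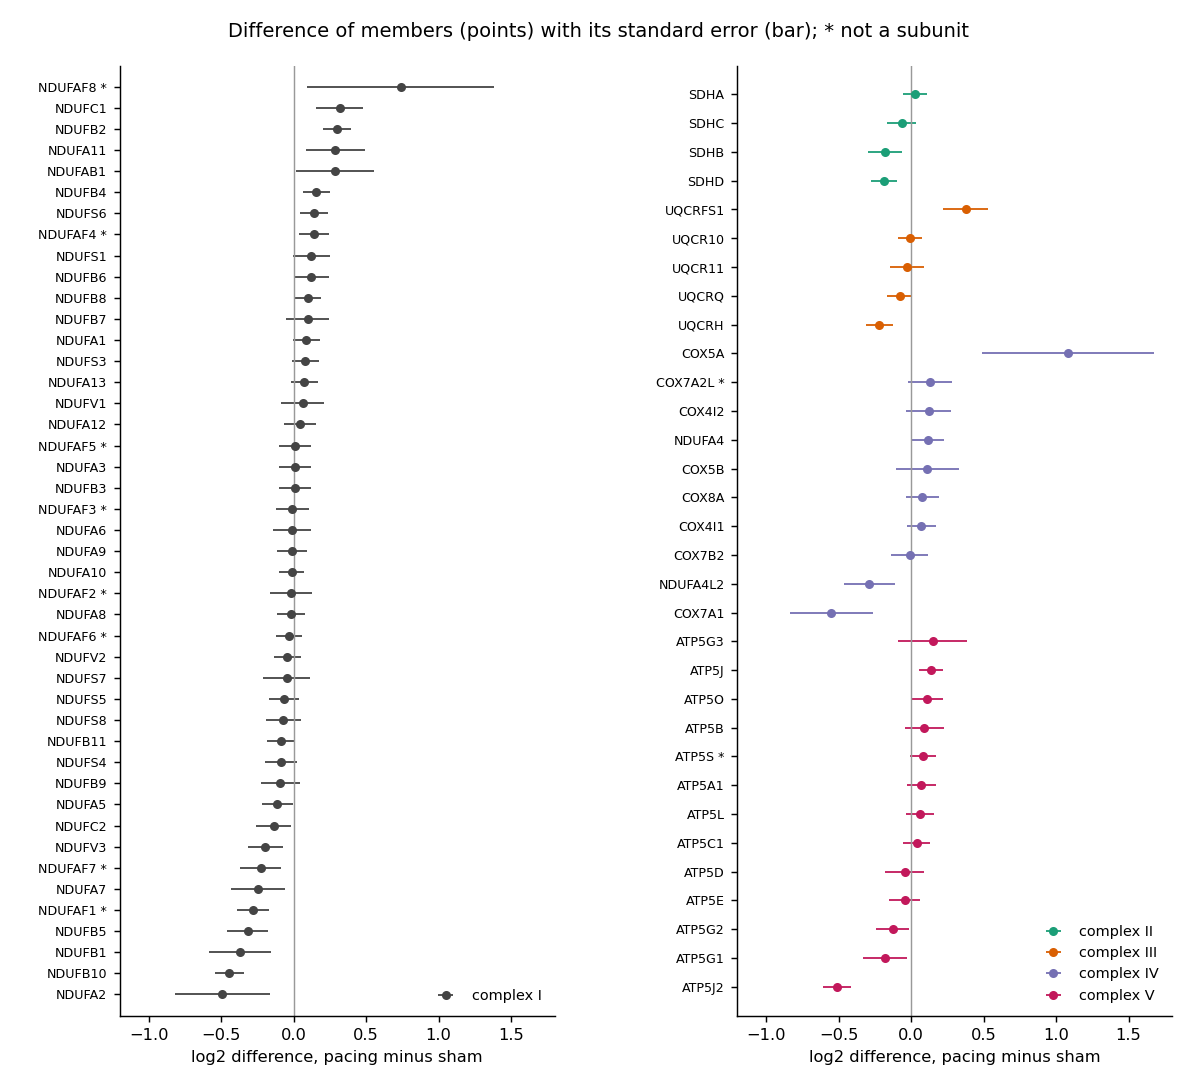
Log2 difference in RPKM + 1, pacing minus sham, of the members named on the axes (points) with the standard error from limma (bars), complex I on the left and complexes II to V on the right. Most points lie within 0.2 of zero; COX5A, at 1.08, and NDUFAF8, at 0.74, carry the widest bars, and genes with an asterisk are not subunits.

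Complex I takes electrons from NADH in a matrix arm of flavin and iron-sulfur subunits. All 7 nuclear core subunits lay within a log2 difference of 0.2, with a range of -0.07 to 0.12 and a median of -0.04. Over all 37 subunits the median was -0.01, on the other side of zero at 0.05 without sham replicate 3 and at 0.04 with median-of-ratios scaling. NDUFV1, the flavin subunit that binds NADH, stood at 32.3, 27.2 and 30.2 RPKM in the pacing libraries, against 22.8, 32.4 and 31.3 RPKM in the sham libraries. NDUFS1, the largest iron-sulfur subunit, stood at 54.5, 51.9 and 56.02 RPKM in pacing, against 51.4, 41.7 and 56.9 RPKM in sham. The arms overlapped for both core genes. NDUFS7, which carries an iron-sulfur cluster, stood at 13.3, 9.36 and 8.41 RPKM in pacing, against 9.98, 11.05 and 10.7 RPKM in sham.

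Among the 30 accessory subunits of complex I, 14 were higher and 16 lower in pacing, with a median log2 difference of -0.01. NDUFB10, an accessory subunit of the membrane arm (CanFam3.1, as all coordinates here, chromosome 6 from 38968737 to 38971214), was lower in every pacing library. Its level was 244, 246 and 215 RPKM in the pacing libraries, against 328, 306 and 326 RPKM in the sham libraries (log2 difference -0.44, SE 0.10, adjusted p = 0.322). NDUFB2, another membrane arm subunit (chromosome 16 from 8329367 to 8341292), was higher in every pacing library, at 54.3, 50.04 and 51.7 RPKM in the pacing libraries, against 38.8, 46.2 and 41.5 RPKM in the sham libraries (log2 difference 0.30, SE 0.10, adjusted p = 0.455). Neither passed. NDUFC1 stood at 27.5 ± 1.79 RPKM with pacing and 22.2 ± 4.91 RPKM with sham operation, and NDUFB5 at 9.54 ± 0.659 RPKM with pacing and 12.2 ± 2.21 RPKM with sham operation (SD, n = 3 each), with overlapping arms.

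NDUFB10 shares 78 exonic bases at its start with RPL3L and 7 at its end with RPS2, genes of ribosomal proteins on the opposite strand. The library kit keeps strand per the labels, but no source used here gives the strand setting of the counting, so reads in such overlaps cannot be told apart. RPL3L, chosen after its values were seen and known in other mammals as a heart and muscle gene, stood at 40.96, 39.8 and 33.4 RPKM in the pacing libraries, against 55.3, 51.2 and 55.5 RPKM in the sham libraries (log2 difference -0.50, adjusted p = 0.313). It held a nearly fixed share of the NDUFB10 level, between 15.5% and 16.8% in the pacing libraries and between 16.7% and 17.0% in the sham libraries. RPS2, also chosen after its values were seen, showed no such ratio, at 156, 110.3 and 55.7 RPKM in pacing, against 36.1, 64.5 and 96.9 RPKM in sham and with overlapping arms. In all, 13 of 77 members share exonic bases with another model, at most 11.3% of their length.

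**Figure D3:**
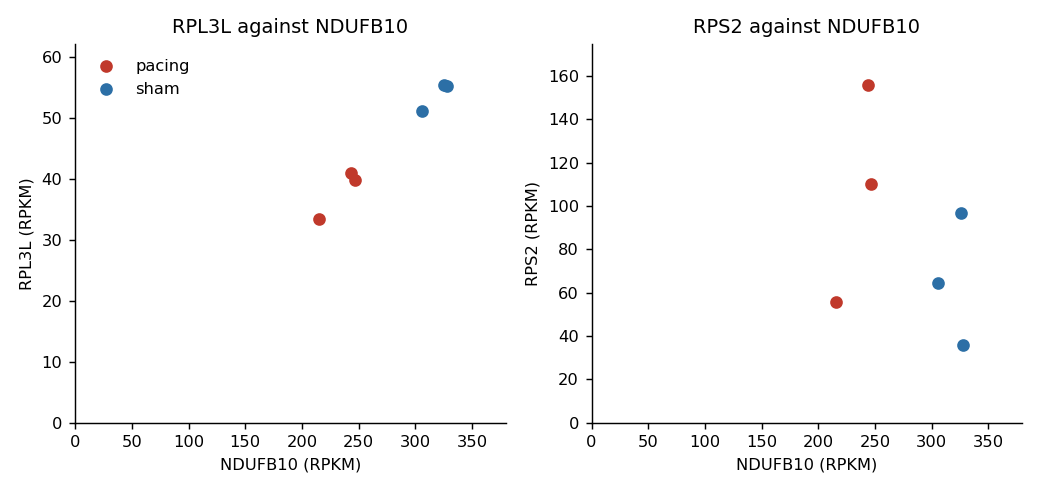
RPKM of RPL3L (left) and RPS2 (right) against RPKM of NDUFB10 in the 3 pacing libraries (red) and 3 sham libraries (blue). RPL3L lies at 15.5% to 17.0% of the NDUFB10 level in every library, and RPS2 ranges from 36.1 to 156 RPKM.

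NDUFA2, an accessory subunit of the matrix arm, had 1 high library. It stood at 37.3, 38.8 and 35.9 RPKM in the pacing libraries, against 41.4, 36.8 and 96.4 RPKM in the sham libraries (log2 difference -0.49, SE 0.33, adjusted p = 0.657). Sham replicate 3 was far above the other 5 libraries, which lay between 35.9 and 41.4 RPKM. The gene model for NDUFA1 joins exons on chromosome 17 from 60181098 to 60181510 with exons on chromosome X from 91886062 to 91889841, so its level sums both places. It stood at 28.5, 25.9 and 24.9 RPKM in pacing, against 23.6, 25.7 and 25.1 RPKM in sham. NDUFB1, at 6.32 RPKM in the mean, is the other of 2 members that a RefSeq table of assembly UU_Cfam_GSD_1.0 places on another chromosome, of 65 members found there by symbol.

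The NDUFA prefix also takes in 8 assembly factors, which help to build complex I and do not stay in it. Their levels ran from 3.75 RPKM for NDUFAF3 to 57.2 RPKM for NDUFAF2. NDUFAF1 was lower in every pacing library without passing, at 4.12, 3.87 and 4.78 RPKM in the pacing libraries, against 4.91, 5.69 and 5.52 RPKM in the sham libraries (log2 difference -0.28, SE 0.11, adjusted p = 0.529). NDUFAF8 was highest in pacing replicate 1, with 559, 215 and 46 reads in pacing, against 106, 107 and 143 reads in sham. Those reads gave 23.5, 9.61 and 2.4 RPKM in pacing, against 3.88, 3.78 and 7.15 RPKM in sham, a 9.8-fold range over libraries. Arms overlapped for all NDUFAF genes except NDUFAF1, with NDUFAF2 at 56.6 ± 4.46 RPKM with pacing and 57.7 ± 10.1 RPKM with sham operation and NDUFAF4 at 21.02 ± 0.851 RPKM with pacing and 19.05 ± 2.11 RPKM with sham operation (SD, n = 3 each).

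Complex II, succinate dehydrogenase, is also an enzyme of the citric acid cycle. SDHB, SDHC and SDHD had lower means in pacing and SDHA did not, and none passed. SDHA, the flavin subunit that oxidizes succinate, varied little between libraries, at 86.8, 86.3 and 86.6 RPKM in the pacing libraries, against 85.1, 82.2 and 88.1 RPKM in the sham libraries (log2 difference 0.02, adjusted p = 0.94). SDHB, the iron-sulfur subunit, stood at 26.8, 28.7 and 21.996 RPKM in the pacing libraries, against 29.8, 29.99 and 27.8 RPKM in the sham libraries (log2 difference -0.18, adjusted p = 0.652), with pacing replicate 2 inside the sham range. The difference was -0.07 without pacing replicate 3. SDHD, a membrane anchor (chromosome 5 from 21030295 to 21041125), was lower in every pacing library, at 17.9, 17.5 and 17.7 RPKM in the pacing libraries, against 19.1, 21.7 and 20.2 RPKM in the sham libraries (log2 difference -0.19, SE 0.09, adjusted p = 0.578). SDHC, the other membrane anchor, stood at 8.41, 8.61 and 9.44 RPKM in pacing, against 8.4, 9.92 and 9.55 RPKM in sham and overlapped (log2 difference -0.07, adjusted p = 0.861), with a difference between -0.13 and -0.02 when 1 sham library was left out. The median log2 difference over the 4 genes was -0.12, beside -0.04 for all genes, and -0.08 without sham replicate 2 or with median-of-ratios scaling. Summed over the complex, 139.9, 141 and 136 RPKM in pacing lay just below 142, 144 and 146 RPKM in sham, whereas its shares of reads overlapped between arms.

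Complex III passes electrons from ubiquinol to cytochrome c. UQCRFS1, the Rieske iron-sulfur protein (chromosome 1 from 122035193 to 122038032), had the higher mean in pacing, at 62.9, 56.5 and 45.8 RPKM in the pacing libraries, against 44.4, 35.4 and 46.6 RPKM in the sham libraries (log2 difference 0.38, SE 0.15, adjusted p = 0.539). Pacing replicate 3 lay below sham replicate 3, so the arms overlapped. UQCRH (chromosome 15 from 14082954 to 14092690) was lower in every pacing library, at 226, 218 and 230.1 RPKM in the pacing libraries, against 251, 258 and 278 RPKM in the sham libraries (log2 difference -0.22, SE 0.09, adjusted p = 0.544). Neither passed, and these subunits of the same complex stood on opposite sides of zero. The small subunit UQCRQ had overlapping arms (log2 difference -0.08, adjusted p = 0.782). UQCR11 (log2 difference -0.03) and UQCR10 (-0.01) differed between arms by less than the SD of either arm. UQCR10, for example, stood at 129.9, 127 and 127 RPKM in pacing, against 126, 127 and 132 RPKM in sham.

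**Figure D4:**
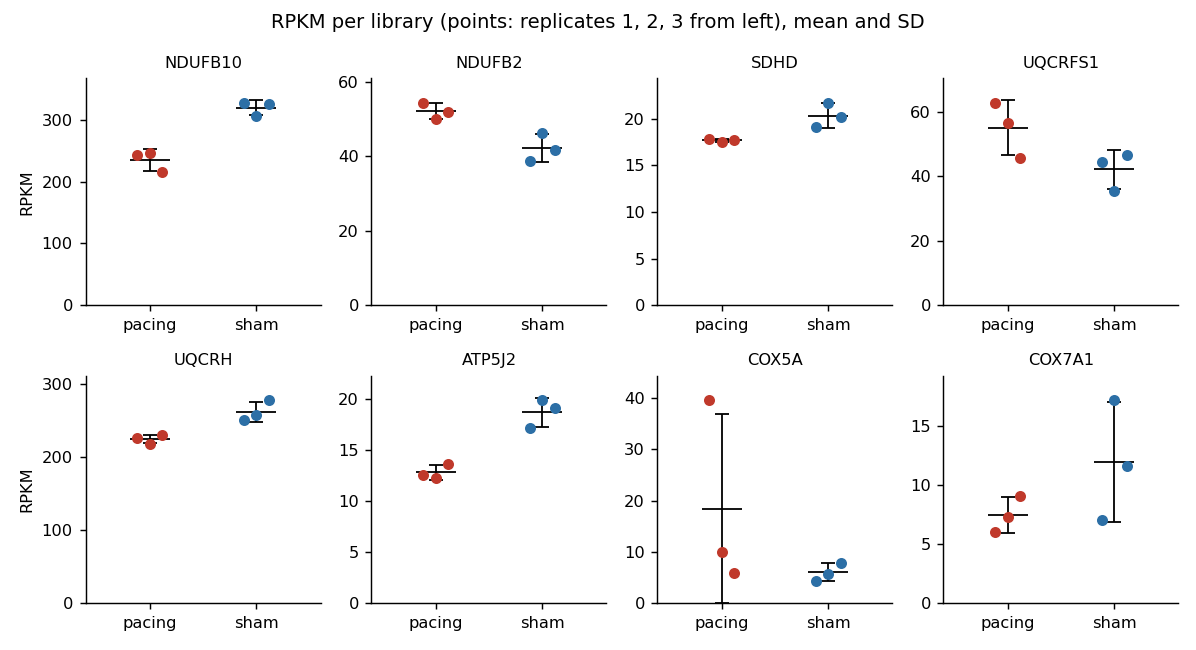
RPKM per library of 8 members in the 3 pacing libraries (red, left) and 3 sham libraries (blue, right), each with its mean (wide bar) and SD (capped line); axes start at 0. NDUFB10, SDHD, UQCRH and ATP5J2 lie lower in every pacing library and NDUFB2 higher, and the COX5A mean rests on pacing replicate 1, at 39.5 RPKM.

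Complex IV, cytochrome c oxidase, reduces oxygen. Of the 9 subunit genes found for it, 6 were higher and 3 lower in pacing, with a median log2 difference of 0.08, and 0 had arms that did not overlap. The median was 0.04 without sham replicate 1 and 0.12 without pacing replicate 3 or with median-of-ratios scaling. Without the tissue isoforms 5 of 5 were higher, with a median of 0.11, and 0 passed. All 3 lower genes (COX7A1, NDUFA4L2 and COX7B2) were isoforms, so 5 of 5 follows from leaving these out. COX4I1, the general form of the regulatory subunit COX4, stood at 212, 202 and 186 RPKM in the pacing libraries, against 183, 185 and 202 RPKM in the sham libraries. COX5B stood at 210.1, 199.7 and 191 RPKM in pacing, against 128, 229 and 215 RPKM in sham, with sham replicate 1 far below the others. NDUFA4, first described as a complex I subunit and later placed in complex IV, stood at 232, 222 and 225 RPKM in pacing, against 225, 181 and 224 RPKM in sham, lowest in sham replicate 2. COX8A stood at 9.31 ± 1.18 RPKM with pacing and 8.75 ± 0.603 RPKM with sham operation (SD, n = 3 each).

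COX5A, an accessory subunit of complex IV (chromosome 30 from 37955203 to 37968111), had the widest spread of the complex. It had 1307, 308 and 156 reads in pacing, against 166, 226 and 218 reads in sham. In RPKM these were 39.5, 9.9 and 5.86 RPKM in pacing, against 4.37, 5.73 and 7.83 RPKM in sham (log2 difference 1.08, SE 0.60, adjusted p = 0.611). Pacing replicate 1 alone stood above the rest, by 3.997-fold over the next library, and the log2 difference was 0.34 without it. Pacing replicate 1 exceeded every other library by more than 2-fold for 7 of 16090 genes, COX5A and NDUFAF8 among them.

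COX4I2 and NDUFA4L2 were low beside their general partners. COX4I2, the oxygen-regulated form of COX4 known from lung and from pericytes, stood at 2.87, 3.2 and 1.93 RPKM in the pacing libraries, against 2.6, 2.4 and 2.02 RPKM in the sham libraries, between 0.999% and 1.59% of COX4I1. The summed level of 6 markers of pericytes and smooth muscle was 35.6 to 38.6 RPKM in pacing and 29.6 to 33.9 RPKM in sham; their part in the COX4I2 values was not tested. NDUFA4L2, a hypoxia-inducible relative of NDUFA4, stood at 0.514, 0.561 and 0.49999 RPKM in the pacing libraries, against 0.725, 1.44 and 0.528 RPKM in the sham libraries, between 0.222% and 0.797% of NDUFA4 (log2 difference -0.29, adjusted p = 0.63). The highest value of NDUFA4L2 was in sham replicate 2, and all other libraries lay at 0.725 RPKM or lower. Its difference was -0.09 without sham replicate 2 and -0.68 by limma-voom. COX7B2, a testis isoform, stood at 1.89 ± 0.173 RPKM with pacing and 1.92 ± 0.388 RPKM with sham operation (SD, n = 3 each). COX6A2, the heart and muscle form of COX6A, had 3 reads in pacing, all in replicate 1, and 3 reads in sham, all in replicate 3.

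COX7A1, the heart and muscle form of COX7A (chromosome 1 from 116547179 to 116548917), stood higher than the other isoforms named above. It stood at 6.004, 7.33 and 9.04 RPKM in the pacing libraries, against 7.01, 17.2 and 11.6 RPKM in the sham libraries (log2 difference -0.55, SE 0.29, adjusted p = 0.607), highest in sham replicate 2, and sham replicate 1 lay inside the pacing range. The difference was -0.26 without sham replicate 2 and -0.86 without sham replicate 1. Markers of striated muscle were mixed in the same libraries. MYL2, ACTC1, CKM and MB were at most 0.281 RPKM in any library, whereas TNNT2, the troponin T of heart muscle, stood at 3.35, 11.01 and 5.96 RPKM in pacing, against 42.98, 82.8 and 2.94 RPKM in sham. The summed level of all 8 markers was 34.0, 38.3 and 35.7 RPKM in pacing, against 67.3, 129 and 36.8 RPKM in sham. TNNT2 made up most of the sum in sham replicates 1 and 2. TNNI3 was nearly level (log2 difference 0.01), and MYH6 (-0.75) and MYH7 (-0.37) had lower means in pacing. The part of these markers in the COX7A1 values was not tested. COX7A2L, which the prefix takes in as a factor of respiratory supercomplexes, stood at 21.04, 22.8 and 21.3 RPKM in pacing, against 21.8, 15.5 and 22.8 RPKM in sham.

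Complex V has a catalytic head, a rotating stalk and ring, and a fixed stalk. Of 12 subunit genes 7 were higher and 5 lower in pacing, with a median log2 difference of 0.05 that turned to -0.04 without sham replicate 1 and -0.03 without sham replicate 2. ATP5B stood at 254, 244 and 226 RPKM in the pacing libraries, against 239, 189 and 257 RPKM in the sham libraries, and its partner ATP5A1, the alpha subunit, at 92.8, 87.6 and 92.8 RPKM in pacing, against 91.4, 77.95 and 91.2 RPKM in sham. Sham replicate 2 was the lowest library for both genes, and the other 5 lay between 226 and 257 RPKM for ATP5B. ATP5C1, the gamma subunit that turns inside the head, was nearly level, at 35.5 ± 0.449 RPKM with pacing and 34.7 ± 2.85 RPKM with sham operation (SD, n = 3 each).

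ATP5J2, the f subunit of the membrane part, had the smallest p of all members. It stood at 12.5, 12.2 and 13.6 RPKM in the pacing libraries, against 17.1, 19.8 and 19.1 RPKM in the sham libraries (log2 difference -0.51, SE 0.10, adjusted p = 0.273). Every pacing library lay below every sham library. The deposited model is not that of a small subunit alone: it spans chromosome 6 from 10128623 to 10172377, with 16 separate exon blocks and 4337 exonic bases, passes over the opposite-strand gene CPSF4 and shares 242 bases with BUD31. In human, read-through transcripts join this gene to its neighbour PTCD1. How many of the reads belong to the f subunit cannot be told from the table. ATP5J, the F6 subunit of the fixed stalk (chromosome 31 from 21207080 to 21212220), was higher in every pacing library by a small margin, at 39.1, 37.8 and 39.2 RPKM in the pacing libraries, against 35.6, 34.1 and 35.7 RPKM in the sham libraries (log2 difference 0.14, SE 0.08, adjusted p = 0.63).

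The c ring of complex V is built from 1 protein that the nucleus encodes in several copies. ATP5G3 stood at 23.7, 18.5 and 16.99 RPKM in the pacing libraries, against 11.8, 20.9 and 21.7 RPKM in the sham libraries, ATP5G1 at 10.4, 10.6 and 13.2 RPKM in pacing, against 12.6, 10.999 and 15.8 RPKM in sham (log2 difference -0.18, adjusted p = 0.721) and ATP5G2 at 9.82, 8.73 and 11.1 RPKM in pacing, against 11.4, 10.95 and 10.2 RPKM in sham. The ATP5G1 difference was -0.05 without sham replicate 3 and -0.29 without sham replicate 2. ATP5G3 had the highest mean of the c ring genes, and their order differed between libraries: it was between 129% and 227% of ATP5G1 in the pacing libraries and between 93.3% and 190% in the sham libraries. Reads shared between such similar copies cannot be resolved from the table. ATP5E, the epsilon subunit, is the only member in 1 exon block, and stood at 3.95 ± 0.4004 RPKM with pacing and 4.1 ± 0.291 RPKM with sham operation (SD, n = 3 each). ATPIF1, the inhibitor that blocks ATP hydrolysis by complex V and falls outside the symbol rule, was far more abundant than any member, at 648, 614 and 603 RPKM in the pacing libraries, against 549, 606 and 692 RPKM in the sham libraries (log2 difference 0.02, adjusted p = 0.966).

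The complexes differed between libraries within each arm. Sham replicate 3 had the highest median of complexes I, III and V, at 0.11, 0.04 and 0.11 on the log2 scale above the mean of all libraries, and pacing replicate 1 stood second in each, at 0.07, 0.02 and 0.07. Sham replicate 1 was lowest in complexes I and IV, at -0.07 and -0.09. Of the 77 members, 22 were highest in pacing replicate 1 and 22 in sham replicate 3, or 28.6% each, where 9.26% and 24.8% of all genes had their highest value in these libraries. Sham replicate 1 was the lowest library for 24 members (31.2%, against 18.8% of all genes). Sham replicate 2 was lowest for 24.7% of members and 23.97% of all genes, and highest for 20.8% of members and 32.98% of all genes. Complex II differed from this pattern in that all 3 pacing medians, from -0.06 to -0.03, lay below all 3 sham medians, from -0.0016 to 0.12. These medians are over 4 genes, and the medians of all genes averaged -0.019 in pacing and 0.020 in sham. By share of reads complex II overlapped, at 0.02652%, 0.02656% and 0.02611% in pacing, against 0.02658%, 0.02648% and 0.02740% in sham.

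**Figure D5:**
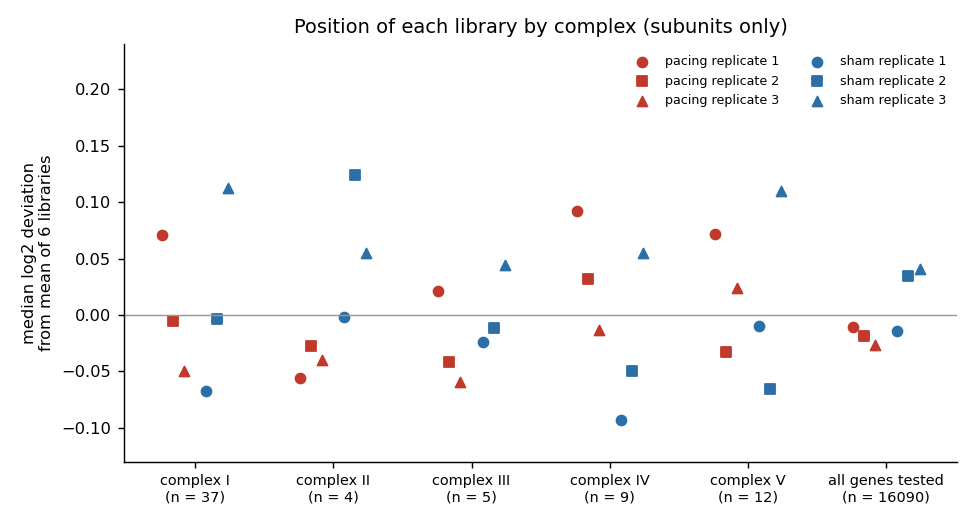
Median log2 deviation of the subunits of each complex from their mean over the 6 libraries, for pacing replicates (red, left) and sham replicates (blue, right); the last column gives all 16090 genes tested. Sham replicate 3 lies highest in complexes I, III and V, and pacing and sham libraries are mixed in each complex except complex II.

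Reads of the nuclear subunits made up 0.466 ± 0.0182% of all reads in the pacing arm and 0.470 ± 0.0302% in the sham arm (SD, n = 3 each). The 13 protein-coding genes of the mitochondrial genome took 8.13 ± 0.416% in pacing and 6.69 ± 1.20% in sham. Mitochondrial reads per nuclear subunit read were 16.6, 16.8 and 19.1 in pacing, against 17.7, 14.4 and 11.0 in sham. By this ratio sham replicate 1 lay inside the pacing range, and the low sham values came from replicates 2 and 3. Of these 13 genes 12 were higher and 1 lower in pacing, with a median log2 difference of 0.67, and 0 passed. The most abundant of them, ATP8 (log2 difference 0.09) and ATP6 (-0.06), had overlapping arms and differed little. For 7 of the 13, every pacing library lay above every sham library, sham replicate 1 included, where 4.92% of all genes did so. At an unadjusted p under 0.05, 5 were higher, beside 2.85% of all genes. ND5, a complex I core subunit, had the smallest p (log2 difference 1.21, adjusted p = 0.273), then ND6 (log2 difference 0.89, adjusted p = 0.332).

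Other genes of the pathway gave 0 calls after adjustment in every list. Of 10 further subunits and carriers measured, 8 were higher and 2 lower (median log2 difference 0.03). Cytochrome c, CYCS, stood at 318 ± 6.58 RPKM with pacing and 317 ± 44.9 RPKM with sham operation, and COQ9, a protein of ubiquinone synthesis, was higher in every pacing library, at 35.1, 32.2 and 30.4 RPKM in the pacing libraries, against 24.1, 23.4 and 20.6 RPKM in the sham libraries (log2 difference 0.50, SE 0.10, adjusted p = 0.302). SLC25A5, an ADP/ATP carrier, overlapped (log2 difference 0.10, adjusted p = 0.738). Assembly factors outside the symbol rule were higher for 6 of 11 in complex I (median 0.04), 6 of 7 in complexes II and III (0.12), 8 of 12 in complex IV (0.09) and 1 of 5 in complex V (-0.11). These counts cover only factors found by symbol. The lists held 12 genes for complex I, 10 for complexes II and III and 21 for complex IV. The smallest p values outside complex IV were those of DMAC2 (log2 difference -0.23, adjusted p = 0.585) and FOXRED1 (log2 difference 0.28, adjusted p = 0.639) for complex I, SDHAF3 (log2 difference 0.31, adjusted p = 0.585) and SDHAF2 (log2 difference 0.21, adjusted p = 0.687) for complexes II and III, and FMC1 (log2 difference -0.18, adjusted p = 0.607) and TMEM242 (log2 difference -0.14, adjusted p = 0.652) for complex V. PET117, a complex IV assembly factor, was higher in every pacing library, at 70.2, 83.7 and 78.5 RPKM in the pacing libraries, against 55.1, 45.6 and 57.9 RPKM in the sham libraries (log2 difference 0.55, SE 0.12, adjusted p = 0.322). COX19, a copper-handling factor of the same complex, was lower in every one, at 11.4, 12.5 and 11.6 RPKM in pacing, against 13.3, 15.6 and 14.1 RPKM in sham (log2 difference -0.25, adjusted p = 0.518).

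Regulators of mitochondrial biogenesis were higher in 4 and lower in 12 of 16, with a median log2 difference of -0.08. PPARGC1A, the coactivator that drives respiratory gene transcription, stood at 4.12, 3.21 and 4.45 RPKM in the pacing libraries, against 3.7, 3.14 and 5.31 RPKM in the sham libraries and overlapped (log2 difference -0.02, adjusted p = 0.976). NRF1, a transcription factor of nuclear respiratory genes, stood at 3.54, 3.59 and 3.36 RPKM in pacing, against 4.48, 4.19 and 3.58 RPKM in sham (log2 difference -0.17, adjusted p = 0.637). POLRMT, the mitochondrial RNA polymerase, had the smallest p of this list, at 2.1, 1.77 and 1.21 RPKM in pacing, against 0.888, 1.19 and 1.29 RPKM in sham (log2 difference 0.33, adjusted p = 0.559), followed by SIRT3, a mitochondrial deacetylase (log2 difference -0.24, adjusted p = 0.631). Citric acid cycle enzymes were higher in 7 and lower in 8 of 15 (median -0.03), with SUCLG2 at 7.89 ± 0.528 RPKM with pacing and 6.16 ± 1.03 RPKM with sham operation (SD, n = 3 each; log2 difference 0.32, adjusted p = 0.539) and MDH2, a malate dehydrogenase, at a log2 difference of -0.23. Outer membrane and import genes were higher in 6 and lower in 4 of 10 (0.04), with TOMM20, an import receptor, at 38.5 ± 2.39 RPKM with pacing and 32.6 ± 3.85 RPKM with sham operation (SD, n = 3 each; log2 difference 0.24, adjusted p = 0.584) and VDAC3, an outer membrane channel, at a log2 difference of 0.30.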

How the data were processed

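The tools named in the submitters' processing notes are Trimmomatic 0.36, STAR 2.5.3a and featureCounts; the sources used here give neither the annotation release nor the strand setting. For hippocampus the authors deposited RPKM, whose values follow from the deposited exon lengths and the assigned reads of each library. Sequence names are those of CanFam3.1, and coordinates are on that assembly. RPKM multiplied by length gave whole reads for 100% of values in each library (within 0.001 reads). Genes with a mean of at least 0.5 RPKM over 6 libraries were tested with limma-trend 3.58.1 in R 4.3.3 on log2(RPKM + 1), a scale that understates differences of low genes. Differences are pacing minus sham. Benjamini-Hochberg adjustment covered all 16090 genes, with a threshold of 0.05.

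Members and lists were chosen with earlier results of these data known, so lists carry counts and medians with no test. The rule for named genes took, in each complex, the 3 members with the smallest p and those with the highest and lowest level, then catalytic subunits, tissue isoforms with their partners, the c ring copies and the inhibitor, and from each other list the 2 genes with the smallest p. Genes of the cell type marker and immediate early lists are named only in part, and a member that falls under the rule is not reported here by name. Any other gene was picked after its values had been seen. Alternatives changed pseudocount, filter, scaling, weights, replicate block and test, and left out each library. limma-voom on recovered reads was added after the data were seen, and a planned count test was not run. Depth was 35003483 to 51789497 assigned reads per library. Sequences were not used here.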

Additional observations from a re-analysis of the deposited data

How the results depend on the processing

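No member passed under any of the 16 alternatives run; the smallest adjusted p of a member by limma ranged from 0.072, without sham replicate 1, to 0.98, without pacing replicate 2. The 3 members of smallest p in each complex, 15 in all, kept their sign under every alternative in which they were tested. The count of all genes that passed, 4, was 7 with no filter on low values, 23 with library weights and 7 with the replicate block, and 3 to 95 when 1 library was left out (95 without sham replicate 1, 9 without sham replicate 2). Same-numbered libraries of the arms did not deviate together (r of -0.11, 0.06 and -0.01), so the numbers were not taken as pairs, and 0 members passed with the block. Median-of-ratios scaling moved the median log2 difference of complex II to -0.076 and of complex III to 0.019. Leaving out 1 library gave -0.077 to -0.00095 for complex III and -0.044 to 0.088 for complex V, which was -0.044 without sham replicate 1 and -0.031 without sham replicate 2. Members with the higher mean in pacing numbered 35 to 45 when 1 library was left out. The planned edgeR test was not run; limma-voom on recovered reads called 0 members.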

Other observations

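COX5A and NDUFAF8 were highest in pacing replicate 1. That library exceeded every other library by more than 2-fold for 7 of 16090 tested genes, and these 2 members were among them; no test was made. Of the other 5, LOC102151313 on chromosome 4 stood at 49.8, 17.8 and 13.8 RPKM in pacing, against 13.6, 13.1 and 15.02 RPKM in sham, and TTC9B at 4.3, 1.26 and 1.65 RPKM in pacing, against 0.867, 2.03 and 2.001 RPKM in sham. The corresponding counts were 11 and 2 genes for pacing replicates 2 and 3, against 16, 219 and 35 genes for sham replicates 1, 2 and 3, with NDUFA2 among those of sham replicate 3.

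RPS2, which overlaps the end of the NDUFB10 model, was also highest in pacing replicate 1, at 156, 110.3 and 55.7 RPKM in pacing, against 36.1, 64.5 and 96.9 RPKM in sham. LOC111096329, directly beside RPS2 and also among the 7 genes, stood at 5.06, 2.41 and 0.879 RPKM in pacing, against 0.361, 0.881 and 2.29 RPKM in sham. These genes were chosen after their values were seen.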
